A study of Homo sapiens and Homo sapiens
Mus with 12 samples.

Results

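The genes described here are 7 members of the lipid droplet machinery, HILPDA, PLIN2, PLIN3, PNPLA2, LPIN1, DGAT1 and DGAT2. They were chosen by their roles as droplet coat, lipase or triglyceride synthesis genes, and HILPDA was in addition chosen from its rise in CDH11 KD cultured cells. Earlier results of these data were known when they were chosen. They make up 7 of the 21479 genes listed for the cultured cells and 7 of the 26813 human genes listed for the tumors, and all 7 passed the filter on low counts in both. RNA-seq was performed on UM-UC-3 cells, an advanced human bladder cancer line, carrying a lentiviral GIPZ vector with either a non-silencing hairpin (shCtrl) or a hairpin against CDH11, a cell adhesion cadherin (sh#1 or sh#2). The transduced cells were sorted on the GFP of the vector. CDH11 KD stands for both hairpins together. The cultured set held 3 libraries of each group after 24 h of preculture, and the xenograft set held 5 tumors of each group, taken 4 weeks after subcutaneous transplantation into 5-week-old male BALB/cAJcl-nu/nu nude mice. These mice lack mature T cells and keep other host cells, and a second count table gave the mouse genes of the same tumors.

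Cells store surplus fatty acids as triglyceride in lipid droplets. Lipins and the DGAT enzymes carry out the last steps of triglyceride synthesis, perilipins coat the droplet, and adipose triglyceride lipase (ATGL, encoded by PNPLA2) starts its breakdown. HILPDA, named for its induction by hypoxia, binds ATGL and inhibits it, and hypoxic cancer cells are known to accumulate droplets.

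The totals counted on genes were between 2273182 and 2777019 per cultured library, between 414849 and 1248977 human counts per tumor and between 94406 and 220238 mouse counts per tumor. CDH11 itself had 2, 4 and 4 counts in the shCtrl cultures, 0, 0 and 1 in sh#1 and 1, 2 and 0 in sh#2, which is too few for a fold change. In the tumors it had 5 to 32 counts in shCtrl, 1 to 9 in sh#1 and 2 to 14 in sh#2. The study reports, from separate measurements, significantly lower CDH11 mRNA and protein in the CDH11 KD cells than in shCtrl cells. In cultured cells the epithelial keratins KRT8 and KRT18 and the mesenchymal markers were present, EPCAM and CDH1 were at 0, and 8 urothelial markers together reached at most 28 counts in a library. Library mix 1 held the shCtrl tumors, mix 2 the sh#1 tumors and mix 3 the sh#2 tumors, so mixes and groups cannot be told apart. One tumor, sh#1 tumor 1, stood apart with the lowest human total and with 30.0% of its human and mouse counts on mouse genes, against 10.4% to 18.8% in the other 14 tumors. The tumor fold changes of the members and their mouse shares are therefore also given without it. No label states that the libraries of a group came from separate cultures or that each tumor came from its own mouse, so the tests below measure the spread between these samples, which may be partly technical.

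HILPDA (chromosome 7, 128455849 to 128458418, plus strand, hg38 with GENCODE v44), the ATGL inhibitor, was among the genes with the largest rise in CDH11 KD cultured cells. Values are CPM, the counts scaled to a common library size after TMM normalization, which also corrects for composition. The shCtrl libraries had 58.3, 58.2 and 46.1 CPM, the sh#1 libraries 742, 785 and 715 CPM, and the sh#2 libraries 648, 670 and 534 CPM. Every CDH11 KD library lay far above every shCtrl library. The mean rose from 54.2 ± 7.0 (SD, n = 3) to 682 ± 87.5 (SD, n = 6) CPM, which is 12.6-fold (log2 fold change 3.65, standard error 0.14). By log2 fold change HILPDA ranked 10 of 9859 genes tested. Because HILPDA was chosen from this contrast, these values describe it and no test is attached to them.

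The contrast between the hairpins did not enter the choice. HILPDA was higher in sh#1 than in sh#2 cells by 0.27 on the log2 scale (standard error 0.07, q = 0.00248, edgeR with the Benjamini-Hochberg correction). The 3 sh#1 libraries lay above the 3 sh#2 libraries. The call rested on sh#2 library 3, the lowest of the CDH11 KD libraries, since without it the difference was 0.18 (q = 0.0579 in the same edgeR test).

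PLIN2 (chromosome 9, 19108375 to 19149290, minus strand), the perilipin that coats droplets in most cells outside fat tissue and is degraded when no droplet holds it, was the other member with a large rise. It had 36.2, 32.4 and 41.5 CPM in the shCtrl libraries, 95.5, 110 and 97.6 CPM in sh#1 and 227, 240 and 229 CPM in sh#2. The 3 groups did not overlap, and sh#2 cells were the highest. The mean was 2.75-fold that of shCtrl with sh#1 and 6.33-fold with sh#2, and the log2 fold change of CDH11 KD as a whole was 2.17 (standard error 0.45), rank 52 of 9859. PLIN2 was lower in sh#1 than in sh#2 by 1.20 on the log2 scale (log2 difference -1.20, standard error 0.08, q = 3.59e-17, edgeR with the Benjamini-Hochberg correction). HILPDA and PLIN2 were thus ordered oppositely by the hairpins, with HILPDA highest in sh#1 and PLIN2 highest in sh#2.

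PLIN3 (chromosome 19, 4838341 to 4867694, minus strand) encodes a perilipin that is stable in the cytosol and moves onto small new droplets. It had 158, 144 and 147 CPM in the shCtrl libraries, 102, 109 and 109 CPM in sh#1 and 130, 127 and 114 CPM in sh#2. All 6 CDH11 KD libraries were below all 3 shCtrl libraries. The log2 fold change was -0.38 (standard error 0.10) for CDH11 KD, -0.49 with sh#1 and -0.27 with sh#2. Between the hairpins it differed by -0.21 (standard error 0.09, q = 0.0698, edgeR with the Benjamini-Hochberg correction), which missed the threshold of 0.05, although without sh#2 library 3 the difference was -0.27 with q = 0.0447 in that test.

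The PLIN2 and PLIN3 transcripts therefore shifted against each other between the groups, and the coat proteins were not measured. The number of PLIN2 counts per PLIN3 count was 0.224 to 0.283 in shCtrl, 0.894 to 1.01 in sh#1 and 1.75 to 2.00 in sh#2 cells. This ratio is taken within a library and is not affected by the normalization.

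**Figure D1:**
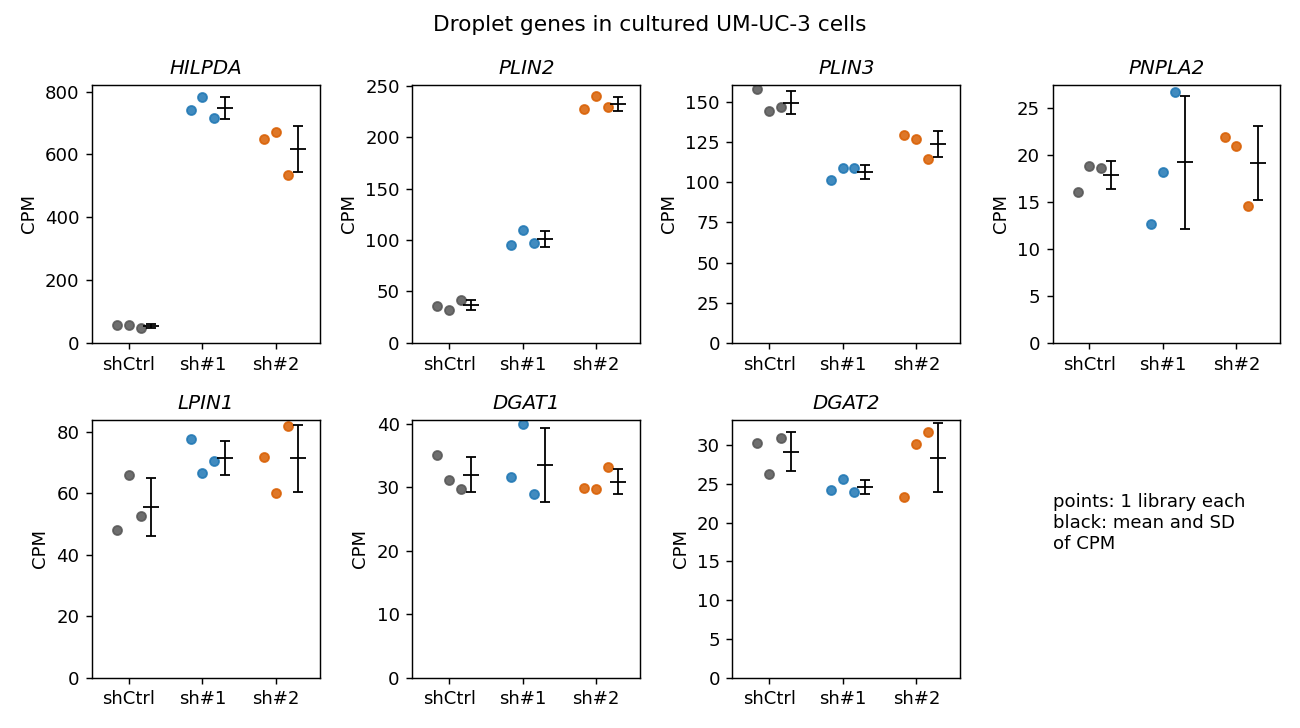
Normalized expression (CPM, each panel with its own axis from 0) of the 7 droplet genes in 9 libraries of cultured UM-UC-3 cells, as points per library with the group mean and SD in black. HILPDA rose from 46.1 to 58.3 CPM in shCtrl to 534 to 785 CPM in CDH11 KD, PLIN2 formed 3 separate levels, PLIN3 was lower in both hairpins, and the CDH11 KD means of PNPLA2, LPIN1, DGAT1 and DGAT2 were 0.909 to 1.29 times the shCtrl mean.

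The promoters of the perilipins are shown because PLIN2 was higher and PLIN3 lower in CDH11 KD cultured cells. RefSeq promoter sequences (GRCh38.p14) were matched for 4 of the 7 members, PLIN2, PLIN3, PNPLA2 and LPIN1. The 250 bases before the start were searched on both strands (ACGTG or CACGT) for ACGTG, a form of the core that hypoxia-inducible factors bind. The sequences are printed 5′ to 3′ on the strand of the gene, with matches in capitals. PLIN2 is at chr9:19127493-19127742 and PLIN3 at chr19:4867668-4867917, both on the minus strand. The PLIN2 window lies inside the gene span given above, as RefSeq and GENCODE place the start differently.
PLIN2: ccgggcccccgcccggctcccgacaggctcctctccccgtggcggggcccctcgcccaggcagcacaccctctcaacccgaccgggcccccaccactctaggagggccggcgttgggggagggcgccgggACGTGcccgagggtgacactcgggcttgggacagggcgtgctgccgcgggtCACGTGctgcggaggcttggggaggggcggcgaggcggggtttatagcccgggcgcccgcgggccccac
PLIN3: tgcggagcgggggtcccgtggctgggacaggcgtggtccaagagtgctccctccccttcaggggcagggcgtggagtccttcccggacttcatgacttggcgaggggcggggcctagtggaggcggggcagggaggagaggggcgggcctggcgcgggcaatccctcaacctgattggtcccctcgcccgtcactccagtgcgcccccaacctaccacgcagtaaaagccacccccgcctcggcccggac
The PLIN2 window held 3 matches, of which the pair beginning 69 and 68 bases before the start overlap as the palindrome CACGTG, and the third begins 120 bases before it. The PLIN3 window held 0 matches, as did those of PNPLA2 and LPIN1, the latter at each of its 3 starts. The form GCGTG was not counted and stands in both printed windows, so the difference between them holds for ACGTG alone. The shares that follow also count only ACGTG and its reverse. At least 1 match was found in 18.5% of 35116 promoter windows of the same length, at least 2 in 7.5% and the palindrome in 6.34%. A match is a description of the letters and was not tested for binding. Its part in the changes of PLIN2 and PLIN3 was not tested.

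PNPLA2 (chromosome 11, 818914 to 825573, plus strand), the lipase itself, did not separate the groups in cultured cells. It had 16.1, 18.9 and 18.7 CPM in shCtrl, 12.7, 18.3 and 26.8 CPM in sh#1 and 21.9, 21.0 and 14.6 CPM in sh#2. Both hairpins reached below and above the shCtrl range. The log2 fold change of CDH11 KD was 0.11, with a 95% interval from -0.30 to 0.53, and the hairpins differed by 0.02 (standard error 0.21, q = 0.954, edgeR with the Benjamini-Hochberg correction).

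Of the synthesis genes, LPIN1 (chromosome 2, 11677595 to 11827409, plus strand), a phosphatidate phosphatase that makes diacylglycerol, had 48.0, 66.0 and 52.6 CPM in shCtrl, 77.5, 66.5 and 70.5 CPM in sh#1 and 71.9, 60.2 and 81.8 CPM in sh#2. The log2 fold changes were 0.37 with sh#1 and 0.36 with sh#2 (standard error 0.12 each), and only sh#2 library 2 fell within the range of shCtrl. DGAT1, the diacylglycerol acyltransferase that re-esterifies fatty acids in the endoplasmic reticulum, ranged from 29.7 to 35.0 CPM in shCtrl, between 28.9 and 40.0 in sh#1 and between 29.6 and 33.1 in sh#2. For CDH11 KD the log2 fold change was 0.01 (95% interval -0.27 to 0.28).

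DGAT2 (chromosome 11, 75759512 to 75801535, plus strand), the acyltransferase that works with newly made fatty acids, had 30.3, 26.2 and 30.9 CPM in shCtrl, 24.2, 25.6 and 24.0 CPM in sh#1 and 23.3, 30.1 and 31.7 CPM in sh#2. The sh#1 libraries lay just below shCtrl, by -0.25 on the log2 scale (standard error 0.16), and the sh#2 libraries overlapped it. LPIN1, DGAT1 and DGAT2 did not pass the test between the hairpins, with differences of 0.01, 0.11 and -0.21 and 95% intervals of -0.23 to 0.24, -0.20 to 0.41 and -0.53 to 0.12.

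Across the members, 3 of 7 had no overlap between CDH11 KD and shCtrl libraries (HILPDA and PLIN2 higher, PLIN3 lower), where 22.0% of the 9859 tested genes had none. For sh#1 alone the count was 5 of 7, adding LPIN1 higher and DGAT2 lower, with 35.7% of all genes, and for sh#2 alone 3 of 7, with 46.7%. Nothing is read from these counts, as the contrast was used in the choice. At q under 0.05, 2 of 7 members differed between the hairpins, where 24.7% of all genes did, so the members' share is close to the background. Over the 9 libraries the Pearson correlation of log2 CPM with HILPDA was 0.85 for PLIN2, 0.71 for LPIN1 and -0.87 for PLIN3, and between -0.47 and 0.11 for the other members. The points share 3 group levels, so these values describe the groups more than the libraries.

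Genes whose pattern was most like HILPDA in culture included IGFBP3, MAFF, DDIT4 and GPRC5A, with correlations of 0.996, 0.993, 0.992 and 0.992 among the 8109 genes that averaged 20 counts or more. PLIN2 was 424 in that order. IGFBP3 encodes a carrier of insulin-like growth factors and DDIT4 a stress-induced inhibitor of mTORC1. In DDIT4 the mean was 78.6 CPM in shCtrl, 608 in sh#1 and 473 in sh#2, the same order of groups as in HILPDA.

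The wider droplet pathway was read from 97 further genes in 5 lists, 60 of which were tested in cultured cells. The lists were drawn up with earlier results of these data known, so their q values in culture are given as a description. In CDH11 KD 6 of these were higher and 6 lower at q under 0.05 (edgeR), where 17.4% of all genes passed. The median log2 fold change of the lists was -0.01, against 0.00 over all genes tested. In the list of lipolysis and lipase control, 3 of 8 tested genes were higher and 0 lower, with a median of 0.20. G0S2, which like HILPDA is a protein inhibitor of ATGL, rose from 16.9 ± 2.25 (SD, n = 3) to 43.7 ± 3.99 (SD, n = 6) CPM (log2 fold change 1.38, standard error 0.15, q = 5.37e-06, edgeR with the Benjamini-Hochberg correction). UBXN4, an adaptor of the p97 ATPase at the endoplasmic reticulum, rose by 0.61 (q = 0.000823 in edgeR). MGLL, the lipase of monoacylglycerol, rose by 1.45 (q = 0.0136 in edgeR) but averaged 10.7 counts per library, under the minimum of 20 set for naming genes, and was named after its values were seen. Its call was lost without shCtrl library 2 or 3, while those of G0S2 and UBXN4 held in all 15 alternative analyses.

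In the list of acyl activation and glycerolipid synthesis, 0 of 16 tested genes were higher and 3 lower, with a median of -0.04. The share that passed was close to the 17.4% over all genes. The 3 were GPAM, the mitochondrial glycerol-3-phosphate acyltransferase (-0.85, standard error 0.24, q = 0.0188), GPAT4, its counterpart in the endoplasmic reticulum (-0.74, standard error 0.14, q = 0.00146), and AGPAT3, which acylates lysophosphatidate (-0.60, standard error 0.15, q = 0.0116, all in edgeR with the Benjamini-Hochberg correction). The other tested genes of the GPAT and AGPAT names, GPAT3, AGPAT1, AGPAT2, AGPAT4 and AGPAT5, did not pass, with values from -0.29 (AGPAT5, q = 0.123 in edgeR) to 0.09 (AGPAT2). The call of GPAM was lost without shCtrl library 1 or 3 and that of AGPAT3 without shCtrl library 1. Among coat and formation genes, RAB18, a small GTPase of the droplet surface, was lower (-0.41, q = 0.0236 in edgeR), 1 of 9 tested genes with a median of 0.12 for the list, and its call was lost without any 1 of the shCtrl libraries. In the uptake list 1 of 8 tested genes was higher and 1 lower (median -0.09), and the higher one was VLDLR, a receptor that takes up triglyceride-rich lipoproteins (0.95, q = 0.0307 in edgeR).

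In the list of fatty acid oxidation and PPAR factors, 3 of 19 tested genes passed in cultured cells, with a median of 0.01. This share is close to the 17.4% over all genes. HADHA and HADHB, the 2 subunits of the mitochondrial trifunctional protein, rose by 0.33 and 0.49 (q = 0.0132 and q = 0.00947 in edgeR), while the coactivator gene PPARGC1B fell from 10.6 ± 2.39 (SD, n = 3) to 2.93 ± 1.21 (SD, n = 6) CPM (log2 fold change -1.81, q = 0.000738 in edgeR). PPARGC1B averaged 13.7 counts and, like MGLL, was named after its values were seen. The calls of HADHA and HADHB were lost without shCtrl library 3. The call of VLDLR was lost in 7 of 15 alternative analyses, including the fits without any 1 of the shCtrl libraries or any 1 of the sh#2 libraries. The 5 mesenchymal markers summed to 4106 to 4529 CPM in sh#2, with no overlap with the 2338 to 2623 CPM in shCtrl and sh#1. Most of their counts over the cultured libraries were VIM (60634), with 2086 for ZEB1, the next highest. The part of these markers in the hairpin differences was not tested.

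**Figure D2:**
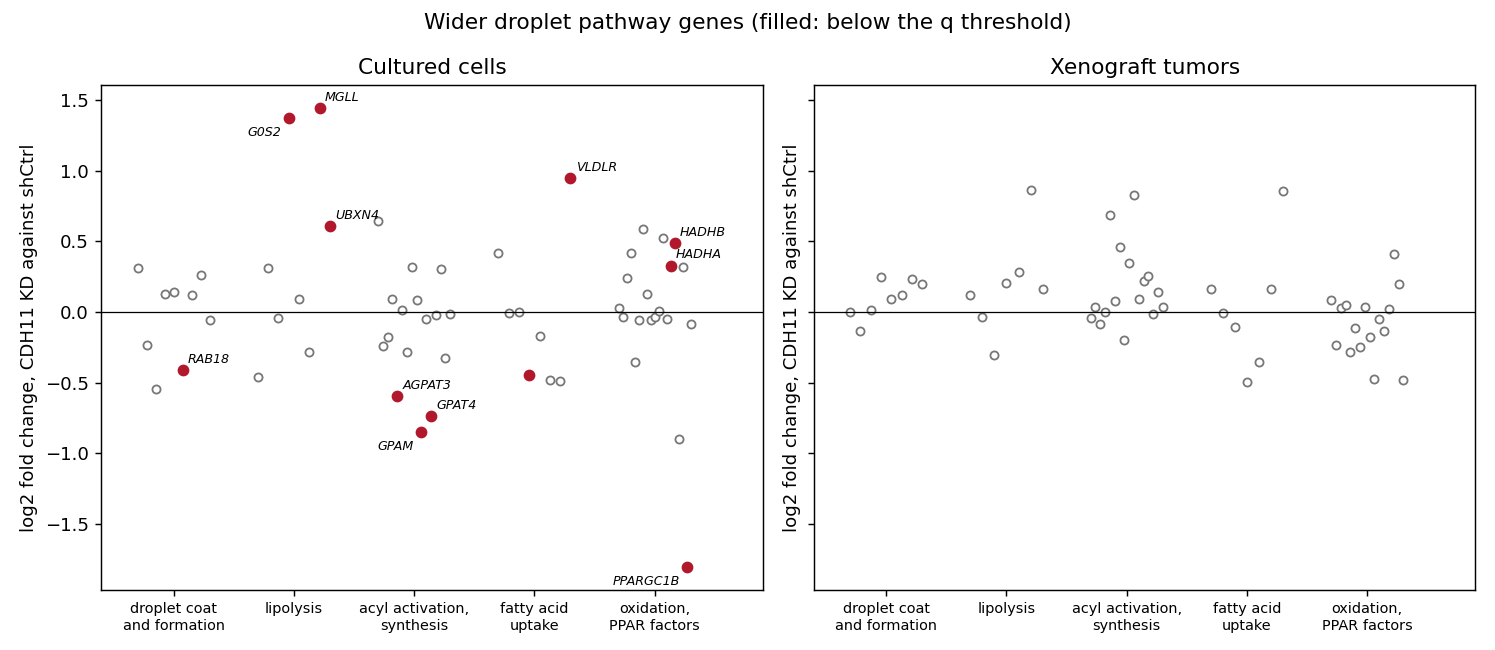
Log2 fold change of CDH11 KD against shCtrl for the tested genes of 5 droplet pathway lists, at left in cultured cells and at right in xenograft tumors, with filled points below the q threshold (0.05 in culture, 0.1 in tumors) and open points above it, with the genes described in the text labelled. In culture 6 genes were higher and 6 lower, with G0S2 and MGLL highest and PPARGC1B lowest, and in tumors all points are open.

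In the xenograft tumors the levels of the members overlapped between the groups. The tumor and cultured tables were normalized separately, so CPM values are compared only within each. A bulk tumor sample also cannot tell fewer cells of a type apart from less RNA per cell. HILPDA had 53.0, 45.4, 94.6, 59.6 and 42.9 CPM in the shCtrl tumors, 241, 93.8, 47.7, 68.5 and 49.5 CPM in sh#1 and 45.5, 72.5, 48.8, 90.7 and 47.7 CPM in sh#2. Of the 10 CDH11 KD tumors, 5 lay above the shCtrl mean and only sh#1 tumor 1 lay above the highest shCtrl tumor. The log2 fold change of CDH11 KD was 0.34 (standard error 0.38, 95% interval -0.41 to 1.09, q = 0.771, edgeR with the Benjamini-Hochberg correction), and without sh#1 tumor 1 it was 0.09 (standard error 0.21, q = 0.910 in the same test). With sh#1 alone it was 0.58 and with sh#2 alone 0.06. The upper end of the tumor interval lies below the 3.65 measured in culture, and the difference between the systems was not tested.

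PLIN2 in the tumors had 22.5, 15.1, 44.5, 29.3 and 26.0 CPM in shCtrl, 164, 40.7, 28.6, 40.2 and 22.2 CPM in sh#1 and 28.4, 53.7, 32.6, 34.1 and 45.8 CPM in sh#2. It was above the shCtrl mean in 9 of 10 CDH11 KD tumors, but only 3 of 10 exceeded the highest shCtrl tumor. For CDH11 KD this came to a log2 fold change of 0.67 (standard error 0.43, 95% interval -0.18 to 1.52, q = 0.568 in edgeR), and 0.38 (standard error 0.21, q = 0.456 in edgeR) without sh#1 tumor 1. The hairpin order also turned with that tumor, from 0.35 higher in sh#1 than in sh#2 with it to -0.22 without it, neither of which passed (q = 0.878 and q = 0.838 in edgeR). PLIN2 counts per PLIN3 count were 0.933 to 2.29 in shCtrl, 0.846 to 7.38 in sh#1 and 1.54 to 4.44 in sh#2 tumors and overlapped.

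**Figure D3:**
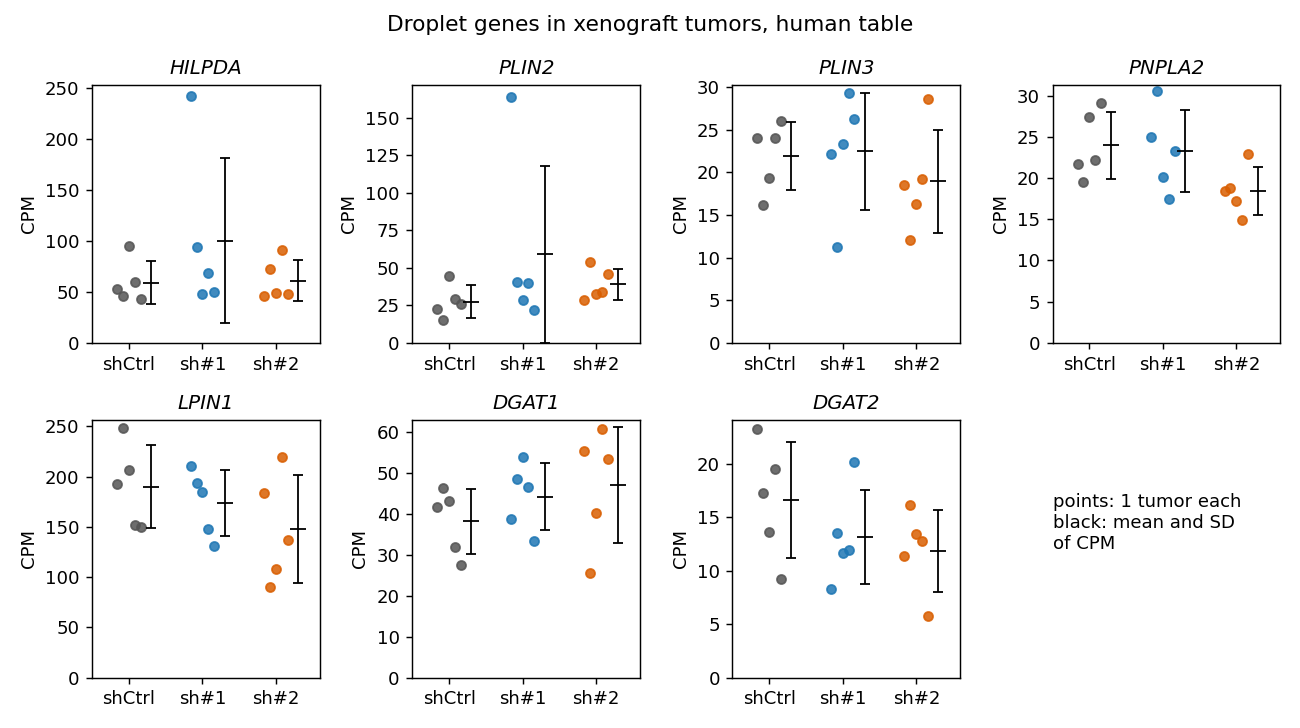
Normalized expression (CPM, each panel with its own axis from 0) of the 7 droplet genes in the human count table of 15 xenograft tumors, as points per tumor with the group mean and SD in black. The groups overlap for every gene, and sh#1 tumor 1 is the single high point of HILPDA (241 CPM) and PLIN2 (164 CPM).

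PLIN3 and PNPLA2 had few counts in the tumors. PLIN3 ranged from 16.2 to 26.0 CPM in shCtrl, between 11.3 and 29.4 in sh#1 and between 12.1 and 28.6 in sh#2, on 8 to 30 counts per tumor, with a log2 fold change of -0.09 (95% interval -0.52 to 0.33). PNPLA2 ranged from 19.5 to 29.1 CPM in shCtrl, between 17.4 and 30.5 in sh#1 and between 14.9 and 22.9 in sh#2, with a log2 fold change of -0.20 (95% interval -0.57 to 0.18). The 5 sh#2 tumors lay low in PNPLA2, with 4 of them below the shCtrl minimum of 19.5 CPM, and the contrast of sh#2 with shCtrl gave -0.38 (standard error 0.23, q = 0.486 in edgeR).

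LPIN1 ranged from 150 to 249 CPM in shCtrl (median 193), between 131 and 211 in sh#1 (median 185) and between 90.0 and 220 in sh#2 (median 137). In CDH11 KD the tumors differed by -0.25 on the log2 scale (95% interval -0.61 to 0.10), where both hairpins gave a positive value in culture. DGAT1 ranged from 27.6 to 46.5 CPM in shCtrl, between 33.3 and 54.1 in sh#1 and between 25.5 and 60.8 in sh#2, a log2 fold change of 0.25 (95% interval -0.09 to 0.59). DGAT2 was the lowest in counts, with 3 to 29 per tumor, and 9 of 10 CDH11 KD tumors were below its shCtrl mean of 16.6 ± 5.41 CPM (SD, n = 5), with a value of -0.40 on the log2 scale (standard error 0.24, q = 0.508 in edgeR).

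**Figure D4:**
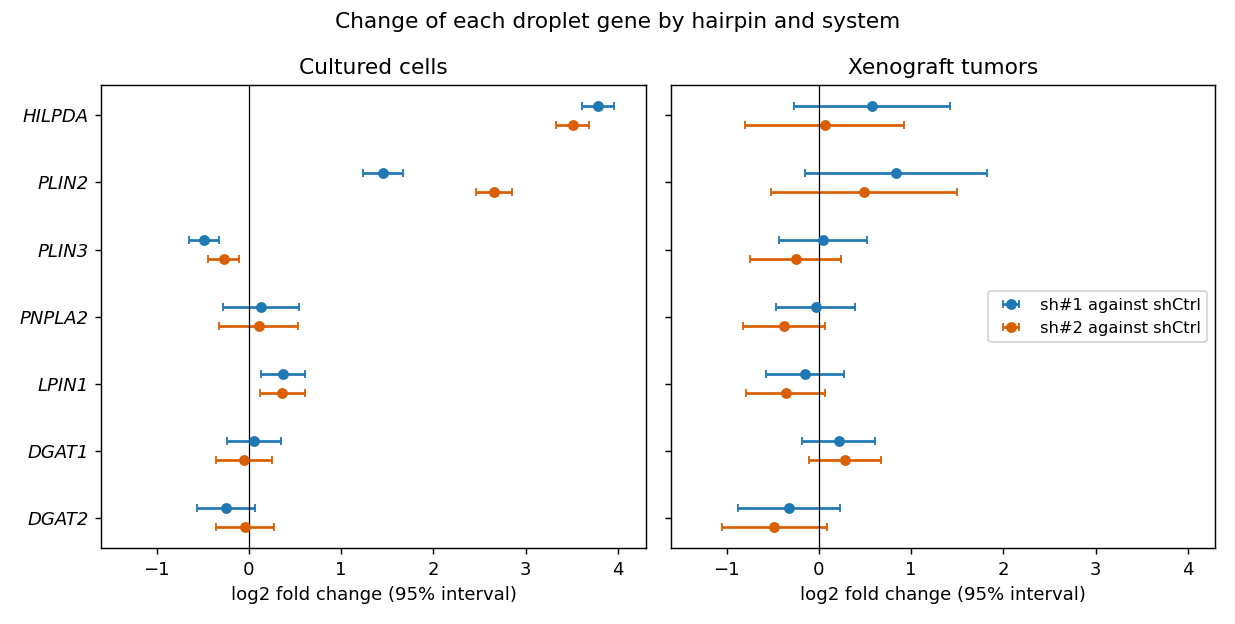
Log2 fold change with its 95% interval for each droplet gene, sh#1 (blue) and sh#2 (orange) each against the same shCtrl samples, in cultured cells (left) and xenograft tumors (right). In culture HILPDA lies at 3.79 and 3.51, PLIN2 at 1.45 and 2.66 and PLIN3 below 0, and in the tumors every interval includes 0.

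At q under 0.1, 0 of 7 members were called in CDH11 KD tumors by edgeR, where 1.51% of 9184 genes were. The count was also 0 for sh#1, sh#2 and the hairpins against each other, with 1.48%, 2.68% and 1.19% of genes called. In edgeR 0 of 7 had an unadjusted p under 0.05 in any of these contrasts, where 12.7% of all genes did for CDH11 KD, 11.2% for sh#1, 13.7% for sh#2 and 9.94% between the hairpins. Without sh#1 tumor 1 the count called was 0 of 7 in each contrast as well, and the log2 fold changes of CDH11 KD were -0.10 for PLIN3, -0.22 for PNPLA2, -0.30 for LPIN1, 0.26 for DGAT1 and -0.38 for DGAT2. DESeq2 called 0 in each as well, with PLIN2 in sh#1 at an unadjusted p of 0.0344 as its 1 gene under 0.05, and in the contrast between the hairpins it gave no adjusted p for PNPLA2, PLIN3 and DGAT2. The CDH11 KD and shCtrl tumors overlapped for every member, and 0.577% of all genes had no overlap. At such small shares over all genes, a count of 0 among 7 members is close to the background.

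Of the wider lists, 54 genes were tested in the tumors and 0 passed in CDH11 KD by edgeR or DESeq2, with 9 at an unadjusted p under 0.05 in edgeR, where 12.7% of all genes were. Without sh#1 tumor 1, 0 passed in edgeR as well. Their median log2 fold change was 0.04, against 0.01 over all genes. For some of the genes that passed in culture, the log2 fold changes in the tumors were 0.21 for G0S2 (standard error 0.43, q = 0.888 in edgeR), 0.86 for MGLL, 0.35 for GPAM, -0.48 for PPARGC1B and 0.85 for VLDLR. The tumor values of the other genes that passed in culture are not given here. GPAM thus had the opposite sign there, without passing (q = 0.525 in edgeR). Without shCtrl tumor 4 the number that passed was 1, and without shCtrl tumor 5 it was 4, among them FAF2, GPAT3 and AGPAT4. Over all genes 74 of 9313 passed without shCtrl tumor 4 and 399 of 9291 without shCtrl tumor 5, against 139 of 9184 with all tumors.

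The single tumor with high HILPDA and PLIN2 also carried the most mouse fat tissue transcripts. In sh#1 tumor 1 the 7 mouse adipocyte markers summed to 1459 counts, of which Fabp4 gave 1258 and Adipoq, Plin1 and Cidec together 144. In the other 14 tumors the sum was 4 to 251 counts, and those 3 defining markers were at 0 to 20. All 7 markers had counts in the mouse table. The 5 mouse skeletal muscle markers gave 1041 counts in that tumor and 2 to 269 in the others. The 3 human adipocyte markers listed with counts summed to at most 5.05 CPM in the sh#1 tumors, below the highest shCtrl tumor. How human and mouse reads were separated is not given in the sources used here, and the part of mouse reads in the human values of HILPDA and PLIN2 was not tested. When the mouse to human count ratio entered the fit as a covariate, the log2 fold change of CDH11 KD was -0.06 for HILPDA and 0.18 for PLIN2 (q = 0.978 and q = 0.893 in edgeR).

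**Figure D5:**
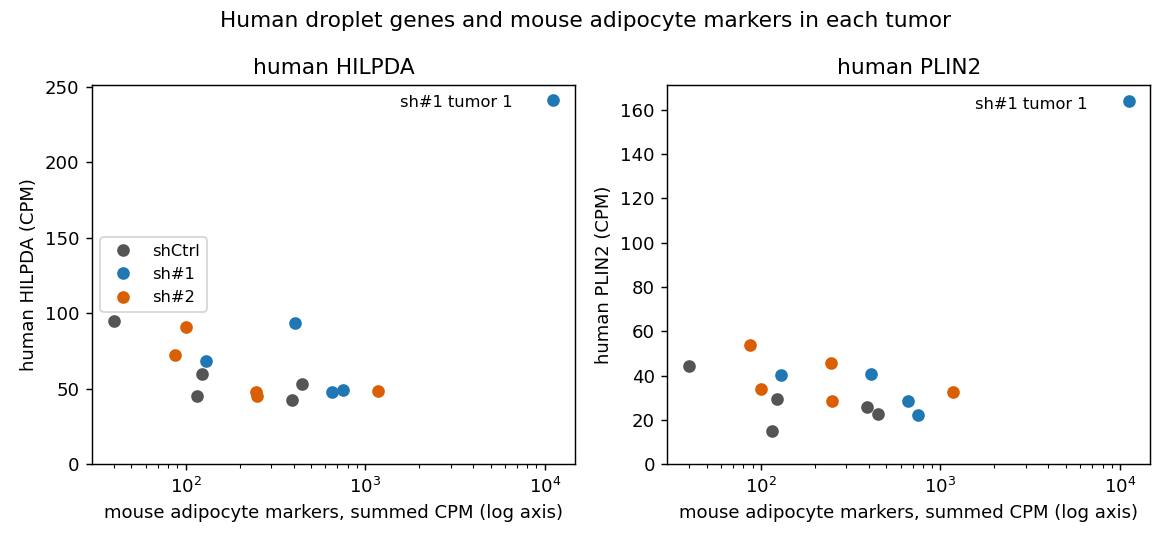
Human HILPDA (left) and human PLIN2 (right) in CPM against the summed CPM of 7 mouse adipocyte markers (log axis) in the 15 tumors, coloured by group. In sh#1 tumor 1 the markers reached 11163 CPM, against 40.0 to 1182 CPM in the other 14 tumors, whose HILPDA was 42.9 to 94.6 CPM and PLIN2 15.1 to 53.7 CPM.

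The mouse counterparts were counted in the same tumors. As a share of human and mouse counts together, the mouse gene gave 46.2% for PLIN2, 30.2% for PNPLA2, 27.0% for PLIN3, 19.1% for DGAT2, 12.3% for HILPDA, 4.63% for DGAT1 and 1.26% for LPIN1. Several of these shares and their order rested on sh#1 tumor 1. Without it they were 39.8% for PLIN2, 25.1% for PLIN3, 15.1% for PNPLA2, 10.5% for HILPDA, 6.93% for DGAT2, 2.52% for DGAT1 and 0.750% for LPIN1. In the shCtrl tumors alone the share was 10.3% for PNPLA2 and 3.41% for DGAT2. Only Plin2 passed the low-count filter of the mouse table, with 1669 genes tested. It had 91.9, 123, 180, 124 and 154 CPM in shCtrl, 995, 174, 171, 173 and 193 in sh#1 and 112, 199, 240, 70.7 and 185 in sh#2. The log2 fold change of CDH11 KD was 0.95 (standard error 0.52, q = 0.848, edgeR with the Benjamini-Hochberg correction) and 0.40 without sh#1 tumor 1. In this contrast edgeR called 0% of the mouse genes and 0 of the 1 tested counterpart, which was also not called by DESeq2 and not at an unadjusted p under 0.05.

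Hilpda in the host had 0 to 17 counts per tumor outside sh#1 tumor 1, where it had 30. In that tumor Pnpla2 had 72 counts and Dgat2 31, and elsewhere they had at most 13 and 4. Over the 15 tumors human HILPDA and PLIN2 had a Pearson correlation of 0.86, and PLIN2 ranked 8 among 6444 genes by likeness to HILPDA, behind SEC61G, KLF6, BTG1, ERO1A and WDR45B (0.893 to 0.871) at the top. ERO1A encodes an oxidase of the endoplasmic reticulum and SEC61G a subunit of its translocon. Without sh#1 tumor 1 the correlation with PLIN2 was 0.60 over 14 tumors, rank 91 of 6593, and the leading genes were GUSB, TPM4, TFPI2, LDHA and RSL24D1 (0.851 to 0.782), so that the order rested on that tumor.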

How the data were processed

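RNA-seq counts of 9 cultured UM-UC-3 libraries and 15 xenograft tumors were analysed. The authors deposited raw read counts per gene, not normalized, as single reads of 75 bp mapped to hg38. According to the study's methods, cultured reads were trimmed in CLC Genomics Workbench and mapped with RaNAseq, and tumor reads were trimmed with trim galore and mapped with HISAT2. The counting tool, the annotation and how human and mouse reads were separated are not given in the sources used here. For the cultured cells, 13 rows with a blank gene name were left out.

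Groups were taken from the labels. Counts were filtered with filterByExpr, scaled by TMM and tested with the quasi-likelihood test of edgeR 4.0.16 in R 4.3.3, over 9859 cultured, 9184 tumor and 1669 mouse genes, with Benjamini-Hochberg adjusted p (q) and q thresholds of 0.05 in culture and 0.1 in tumors. The study's methods give the same q limits and, in culture, also a limit on the fold change, which was not applied here. CDH11 KD was fitted with 2 groups, and the hairpins, alone and against each other, with 3. The scripts were tested on simulated counts. As alternatives, DESeq2 1.42.0 was run, the scaling was set to the upper quartile, the low-count filter was dropped or replaced by a minimum of 10 counts per library, 3 groups or a replicate block were fitted, each replicate was left out and, in tumors, the mouse to human ratio of counts entered as a covariate. The correlation and the mouse shares without sh#1 tumor 1 were added after seeing the data. Correlations used log2 CPM with a prior count of 2.

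The members and gene lists were chosen with earlier results of these data known. Genes named were the 7 members, their mouse counterparts, CDH11, the list genes under the threshold that averaged 20 counts or more (at most 4 per list and direction), and the 5 genes most correlated with HILPDA. Values of some of these genes are not reported here. No pair of replicates agreed within sampling noise. Same-numbered cultured libraries correlated by -0.01 to 0.06 in their deviations from the group means. Same-numbered tumors correlated by -0.10 to 0.13, so the numbers did not pair the samples in the human counts. In the mouse counts of the tumors the values ran from -0.27 to 0.36, with 5 of 15 pairs over 0.1. The 95% intervals are normal intervals from the standard error and so are somewhat narrow at these sample numbers, and tumor totals went down to 414849 counts.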

Additional observations from a re-analysis of the deposited data

Results flagged for a closer look

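Of 42 groups of 5 tumors (the 7 members and their 7 mouse counterparts in 3 groups), 7 had a sample whose gap to the nearest other was too large a share of the group's range by Dixon's test at 95%, and all 7 were sh#1 tumor 1. Chance flags about 1 in 20 groups where these are independent and hold normal values. The 7 flags share sh#1 tumor 1 and are not independent. Lpin1 and Dgat1 had at most 1 count in each other tumor of that group, so the rate does not apply here. In that tumor human HILPDA was 241 CPM (the rest of sh#1 reached 47.7 to 93.8) and human PLIN2 was 164 CPM, against 22.2 to 40.7. Among the mouse genes Plin2 was 995 CPM (130 counts), Pnpla2 551 CPM (72 counts), Dgat2 237 CPM (31 counts), Dgat1 99.5 CPM (13 counts) and Lpin1 91.8 CPM (12 counts). The others of the group reached 193 CPM for Plin2, 70.1 for Pnpla2, 17.5 for Dgat2, 10.2 for Dgat1 and 8.55 for Lpin1.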

How the results depend on the processing

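The count of list genes higher in CDH11 KD culture was 6, 10 with 3 groups and 2 to 7 with a replicate left out. Of those lower it was 6, 11 with 3 groups and 2 to 6 with a replicate left out. The fewest were without shCtrl library 3 (2 higher, 3 lower) and without shCtrl library 1 (2 lower). The calls over all genes moved in the same way. They were 1719 of 9859, 3291 with 3 groups, 882 of 10006 without shCtrl library 3 and 963 of 10019 without shCtrl library 1. Of the list genes in tumors 0 were called, 1 without the low-count filter and 0 to 4 with a replicate left out. Over all genes 139 of 9184 were called in tumors, 276 of 26813 without the filter and 48 to 399 with a replicate left out. The members called in tumors stayed at 0, and in culture between the hairpins at 2, under every alternative run, where HILPDA dropped out and PLIN3 came in without sh#2 library 3. Under the replicate block the list counts in culture were 5 and 5, where 1246 of 9859 genes were called. With that block the members between the hairpins were 2, and the log2 fold change of HILPDA was 3.66 in culture and 0.34 in tumors. PLIN2 in CDH11 KD culture was 2.04 without sh#2 library 2. The values of HILPDA in tumors ran from -0.06 to 0.56 over the alternatives and of PLIN2 from 0.18 to 0.90, with the lowest of both under the mouse ratio covariate. DGAT2 and PLIN3 rested on 3 and 8 counts in the lowest tumor, and the part of depth and of the spread between tumors in their errors was not separated.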
